A study of Mus musculus with 6 samples.

Results

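The fibroblast growth factors (FGFs) examined were 7 ligands (*Fgf1*, *Fgf2*, *Fgf5*, *Fgf7*, *Fgf10*, *Fgf18* and *Fgf21*) and 3 receptors (*Fgfr1*, *Fgfr2* and *Fgfr3*). They were taken by gene name and make up 10 of the 43346 genes in the count table. RNA-seq was performed on mouse adult fibroblasts (MAFs), primary cells from the ears of C57BL6/J mice. Control MAFs (n = 3) were sham irradiated, and senescent MAFs (n = 3) received 20 Gy of X-rays and were cultured for 21 more days. Both groups were wild-type, were kept at 3% oxygen, and were synchronized for 2 hours in 100 nM dexamethasone, a glucocorticoid, with RNA taken 12 hours later. The comparison therefore asks how FGF signaling genes differ between senescent and non-senescent cells at 1 time point after synchronization.

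FGFs are secreted signaling proteins that bind receptor tyrosine kinases together with heparan sulfate on the cell surface. Binding activates the RAS-ERK cascade, which in turn induces ETS transcription factors and feedback inhibitors such as the Sprouty proteins. Ligands of the FGF7 group are made by mesenchymal cells and act mainly on epithelial forms of FGFR2, whereas FGF2 acts widely on fibroblasts and endothelium, and the endocrine FGFs need Klotho proteins as co-receptors.

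Total counts per library were between 50288454 and 82229553. A gene with 0 counts may hold up to 3 counts in a library, which in CPM (counts divided by library size after TMM scaling, a correction for library composition) averages 0.0572 for control and 0.0425 for senescent libraries. Such limits reflect counting error only, and no molecular identifiers are described. Senescent replicate 3 stood apart: relative to counting noise, it differed more from senescent replicates 1 and 2 (median chi-square 32.7 and 48.9 times its chance level) than these differed mutually (2.45 times). To a lesser degree, control replicate 1 differed more from control replicates 2 and 3 (6.31 and 5.35 times) than these differed mutually (1.83 times). *Cdkn1a* and *Cdkn2a*, which encode p21 and p16, were higher in senescent cells (log2 fold changes of 2.33 and 1.90), and *Mki67*, the proliferation marker Ki-67, was lower (-5.94). The fibroblast markers *Col1a1*, *Col1a2*, *Fn1* and *Vim* were abundant in both groups, with at least 44145 counts in any library. Their levels were not all steady: *Col1a1*, *Col1a2* and *Vim* were lower in senescent cells (log2 fold changes of -2.54, -1.87 and -0.74), and *Fn1* was not called. The methods describe female mice, but 4 Y-linked genes held between 1670 and 17550 counts in every library and *Xist* between 1 and 32.

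Most of the FGF ligands rose in senescent cells, while *Fgfr2* and *Fgfr3* fell and *Fgfr1* was not called. Of the 7 ligands, 6 passed the filter on low counts and could be tested. Calls were made with the quasi-likelihood (QL) F-test of edgeR, at a Benjamini-Hochberg adjusted p below 0.05, and these 6 were higher in senescent cells. Among all 17589 genes tested, 36.2% were higher. *Fgf1* passed the filter only through its senescent libraries, so its inclusion already required a difference. *Fgf18* had 2 control libraries past the cutoff, fewer than the 3 libraries needed, so it too passed through its senescent libraries. Of the 3 receptors, 2 were lower, where 34.1% of all genes tested were lower. The study's methods use another threshold, an unadjusted p below 0.05 with more than a 2-fold change. It was passed upward by 5 of the 6 tested ligands and downward by 2 receptors, against 17.8% and 12.3% of all genes tested (30.1% in either direction). A log2 fold change of at least 3 was found for *Fgf1*, *Fgf2*, *Fgf10* and *Fgf18*, and for 5.74% of all genes tested. The control and senescent values did not overlap in 8 of the 9 tested genes, which was also the case for 75.3% of all genes tested. The counts of 6 higher and 2 lower genes were the same without senescent replicate 3.

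**Figure D1:**
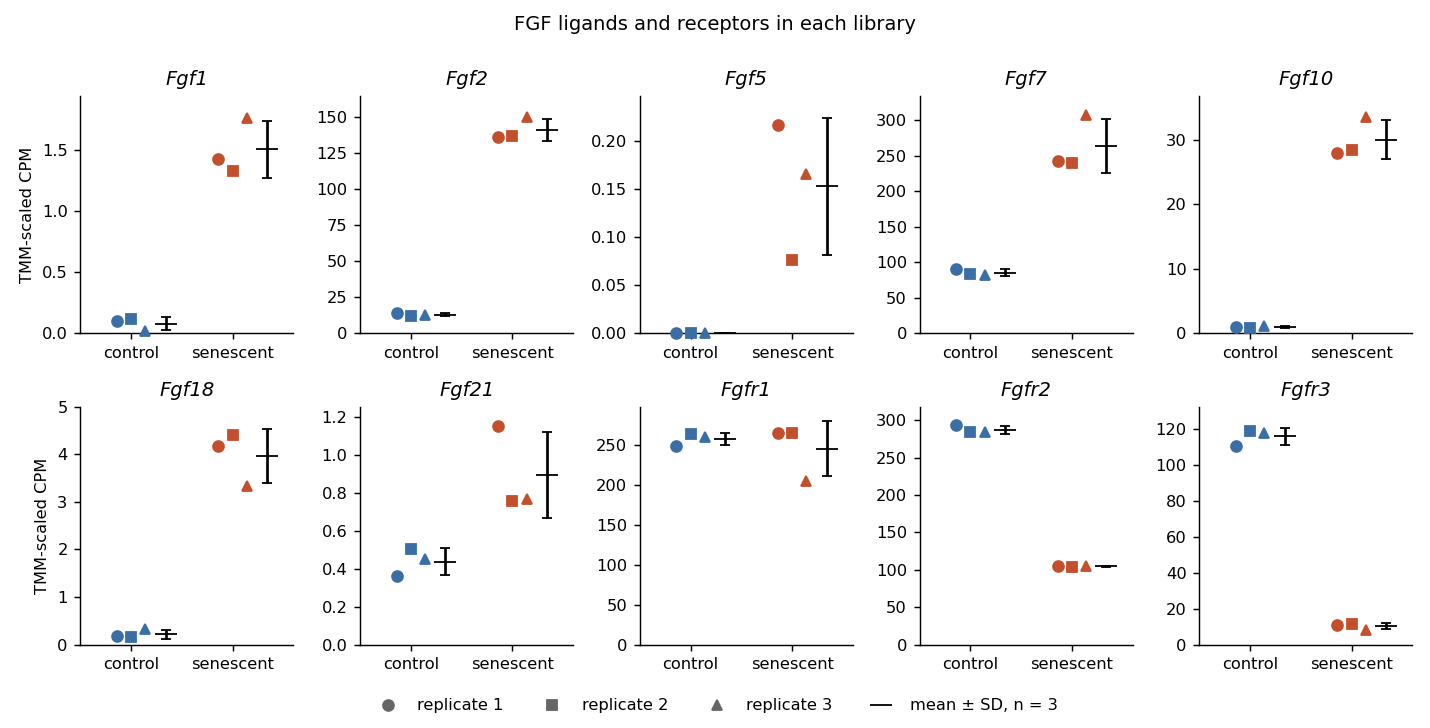
TMM-scaled CPM (vertical axes, linear, from 0) of the 10 FGF genes in 3 control and 3 senescent libraries, with points for replicates and a bar for mean ± SD. All senescent values lie above all control values for the 7 ligands and below them for *Fgfr2* and *Fgfr3*, while *Fgfr1* overlaps.

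*Fgf10*, a mesenchymal ligand required for limb and lung budding, had the largest log2 fold change of the tested FGF genes. *Fgf5* was not tested, and *Fgf7* and *Fgf2* gained more in CPM. *Fgf10* lies on chromosome 13 of mm10 from 118669791 to 118792115 (ENSMUSG00000021732). Its levels were 0.962, 0.753 and 1.08 CPM in control replicates 1, 2 and 3 and 28.0, 28.4 and 33.4 CPM in senescent replicates 1, 2 and 3. The senescent libraries were therefore all far above the control libraries, with means of 0.933 ± 0.167 and 30.0 ± 3.03 CPM (SD, n = 3 per group), a 32.1-fold difference. The difference on the log2 scale was 5.01 ± 0.15 (SE, edgeR QL, adjusted p = 7.38e-08), and 2.37% of all genes tested had a larger one.

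*Fgf7*, or keratinocyte growth factor, is the closest relative of *Fgf10* in the set and was the most abundant ligand of control cells (chromosome 2 from 126034658 to 126091185, ENSMUSG00000027208). It was at 90.6, 82.9 and 82.7 CPM in control and 243, 240 and 307 CPM in senescent replicates 1, 2 and 3. Senescent replicate 3 was the highest, and the other two were close to each other. *Fgf7* rose 3.08-fold, a difference of 1.63 ± 0.11 (SE) on the log2 scale (edgeR QL, adjusted p = 4.93e-06). *Fgf10* was thus raised from a much lower starting level than *Fgf7*: per kilobase of listed gene length, *Fgf7* was 132 ± 23.9 times as abundant as *Fgf10* in control and 12.4 ± 0.553 times in senescent cells (SD, n = 3 per group).

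*Fgf2*, or basic FGF, is a broad mitogen for fibroblasts and endothelial cells (chromosome 3, listed in the count table from 37312519 to 37405377, ENSMUSG00000037225). Its levels were 13.8, 12.0 and 12.7 CPM in control and 136, 137 and 150 CPM in senescent replicates 1, 2 and 3. The spread within each group was small beside the 10.97-fold difference between the groups (log2 fold change 3.46, standard error 0.08, edgeR QL, adjusted p = 2.63e-08). The listed length of *Fgf2* is 1801 bases, against 6782 exon bases in the GENCODE M21 annotation of GRCm38, and the listed span starts upstream of the M21 gene. Its level per kilobase therefore depends on which exons were counted. In M21, 640 of its exon bases are shared with *Nudt6*, a gene on the opposite strand, and the strand setting of the counting is not given in the sources used here. *Nudt6* changed in the other direction, from 3.74 ± 0.227 to 2.74 ± 0.231 CPM (SD, n = 3 per group, log2 fold change -0.44, edgeR QL, adjusted p = 0.00710). *Spata5*, which lies beyond *Nudt6*, had a log2 fold change of 1.71.

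*Fgf1*, or acidic FGF, which can bind all FGF receptors, held few counts in control cells. It had 5, 7 and 1 counts in control and 79, 105 and 149 counts in senescent replicates 1, 2 and 3. These correspond to 0.0793 ± 0.0517 and 1.51 ± 0.231 CPM (SD, n = 3 per group), a difference of 4.17 ± 0.35 (SE) on the log2 scale (edgeR QL, adjusted p = 1.99e-05). From the summed counts of 13 and 333, the ratio was 18.5, with a 95% exact binomial interval of 10.7 to 35.2 that covers counting error alone. Even in senescent cells, *Fgf1* was far below its relative *Fgf2*, which was 244 ± 23.6 times as abundant per kilobase of listed length. With the M21 exon length of *Fgf2*, this ratio would be lower.

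*Fgf18*, a ligand known for its role in cartilage and bone growth, had 9, 9 and 16 counts in control and 232, 349 and 281 counts in senescent replicates 1, 2 and 3 (chromosome 11 from 33117430 to 33147400, ENSMUSG00000057967). The group means were 0.219 ± 0.0944 and 3.97 ± 0.568 CPM (SD, n = 3 per group). The highest control library was thus about an order of magnitude below the lowest senescent library, at 0.327 against 3.33 CPM. The difference on the log2 scale was 4.19 ± 0.25 (SE, edgeR QL, adjusted p = 3.11e-06).

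*Fgf21*, an endocrine FGF that acts in fasting and stress metabolism, showed the smallest increase of the tested ligands (chromosome 7 from 45613907 to 45615490, ENSMUSG00000030827). It had 18, 30 and 22 counts in control and 64, 60 and 65 counts in senescent replicates 1, 2 and 3. The highest control value was 0.502 CPM and the lowest senescent value 0.757 CPM, so the groups were separate but close. The log2 fold change was 1.00 (0.997 before rounding, below 1 and thus short of the study's threshold) and its standard error 0.25 (edgeR QL, adjusted p = 0.00734). *Kl* and *Klb*, the Klotho co-receptors, stayed below the filter, with at most 1 count in control libraries and between 4 and 19 counts in senescent libraries.

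*Fgf5*, known as an inhibitor of hair elongation, was not detected in control cells (chromosome 5 from 98254184 to 98277030, ENSMUSG00000029337). It had 0 counts in each control library and 12, 6 and 14 counts in senescent replicates 1, 2 and 3. The gene did not pass the filter on low counts and was not tested. Against the limit of 3 counts per control library, its senescent mean of 0.153 ± 0.0713 CPM (SD, n = 3) was at least 2.67-fold higher.

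**Figure D2:**
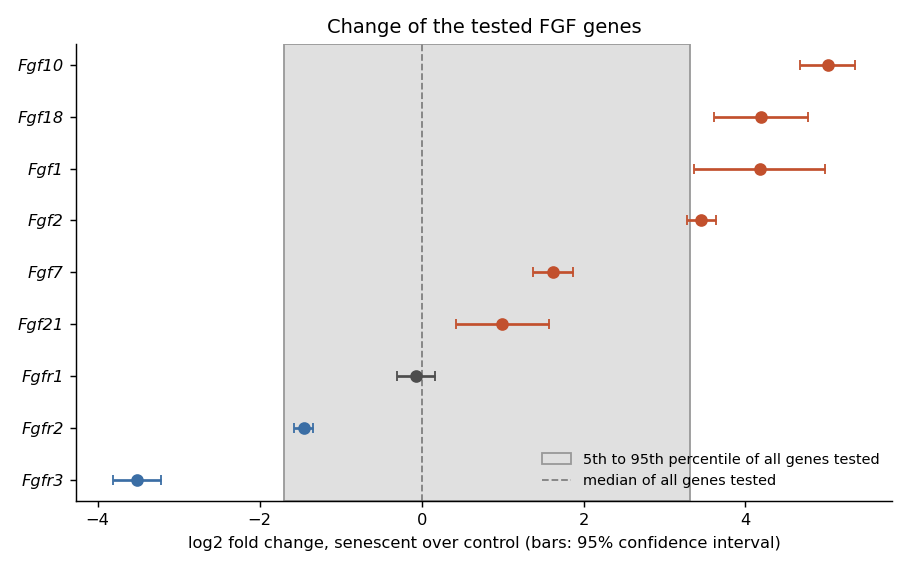
Log2 fold change (horizontal axis) of the 9 tested FGF genes with 95% confidence intervals from edgeR's quasi-likelihood fit, red for higher, blue for lower and dark grey for no call, over the 5th to 95th percentile of all genes tested (grey band, -1.70 to 3.32). *Fgf1*, *Fgf2*, *Fgf10* and *Fgf18* lie above the band, *Fgfr3* at -3.51 lies below it, and the interval of *Fgfr1* spans 0.

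Promoter sequences were examined because the ligands moved in the same direction and because the study concerns BMAL1, which binds the E-box, and AP-1. RefSeq windows of 300 bases (250 before to 50 after a start site, GRCm38.p6) were found for 8 of the 10 genes, 9 windows in all. The windows of *Fgf10* and *Fgfr2* lie within the listed spans of these genes, not at their outer starts. Those of *Fgf2* and *Fgfr3* contain exon bases of M21. The windows therefore need not be the promoters used in these cells, and other start sites were not examined. The E-box (CACGTG, the same on both strands) was present in the windows of *Fgf21* and *Fgfr2*, and in 7.15% of the 32851 windows of all genes. The AP-1 motif (TGACTCA, or TGAGTCA on the other strand) was in none of the 9 windows and in 5.202% of all windows. The E-box of *Fgf21* starts 50 bases before the start site, and that of *Fgfr2* lies after it. The bases before the start are given for the paralogs *Fgf7* and *Fgf10* (chr2:126034408-126034657 and chr13:118714449-118714698, plus strand) and for *Fgf21* (chr7:45615491-45615740, minus strand). They are written 5′ to 3′, and capitals mark the E-box.
Fgf7: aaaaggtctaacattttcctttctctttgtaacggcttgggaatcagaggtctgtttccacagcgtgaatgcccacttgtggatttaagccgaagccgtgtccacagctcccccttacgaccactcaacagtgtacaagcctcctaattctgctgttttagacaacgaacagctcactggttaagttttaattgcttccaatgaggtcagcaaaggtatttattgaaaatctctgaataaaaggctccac
Fgf10: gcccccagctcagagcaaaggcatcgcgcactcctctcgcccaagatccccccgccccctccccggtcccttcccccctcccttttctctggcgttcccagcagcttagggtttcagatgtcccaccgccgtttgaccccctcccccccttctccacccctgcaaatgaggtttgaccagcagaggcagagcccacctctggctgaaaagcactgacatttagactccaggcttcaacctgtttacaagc
Fgf21: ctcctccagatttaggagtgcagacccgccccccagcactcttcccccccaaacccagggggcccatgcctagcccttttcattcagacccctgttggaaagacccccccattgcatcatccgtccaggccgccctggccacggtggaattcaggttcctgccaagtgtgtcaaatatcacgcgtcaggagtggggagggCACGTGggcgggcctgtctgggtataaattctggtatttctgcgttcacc
Over these 250 bases before the start, the GC content was 43.6% for *Fgf7* and 61.2% for *Fgf10*, and the median of all windows was 52.4%.

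Of the receptors, *Fgfr1* showed no difference larger than the spread between libraries. *Fgfr1* is the main FGF receptor of mesenchymal cells (chromosome 8 from 25513654 to 25575714, ENSMUSG00000031565). Its levels were 248.7, 264 and 260 CPM in control and 265, 265 and 205 CPM in senescent replicates 1, 2 and 3. Senescent replicate 3 was the lowest of all libraries, and the other senescent libraries were slightly above the control libraries. The log2 fold change was -0.07, with a 95% confidence interval of -0.31 to 0.16 (edgeR QL, adjusted p = 0.5502). Without senescent replicate 3, it was 0.05 (edgeR QL, adjusted p = 0.224).

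*Fgfr2*, the receptor whose epithelial form binds FGF7 and FGF10, fell in senescent cells (chromosome 7, listed from 130162451 to 133123350, ENSMUSG00000030849). It was at 294, 285 and 284 CPM in control and 105, 104 and 105 CPM in senescent replicates 1, 2 and 3. The senescent libraries were nearly alike (105 ± 0.872 CPM, SD, n = 3), and the control mean was 2.74-fold higher. The difference on the log2 scale was -1.46 ± 0.05 (SE, edgeR QL, adjusted p = 1.56e-07). Counts per gene do not separate the epithelial and mesenchymal forms of this receptor. Of the epithelial splicing factors on which the epithelial form depends, *Esrp1* had 0 counts in control libraries and 1, 3 and 5 counts in senescent replicates 1, 2 and 3. *Esrp2* was present in both groups, with 129 to 160 counts in control and 243 to 297 counts in senescent libraries (2.78 and 3.70 CPM on average, no call, edgeR QL, adjusted p = 0.0523). In M21, 314 of the *Fgfr2* exon bases are shared with *Ctbp2* on the same strand.

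*Fgfr3*, a receptor of cartilage that restrains bone growth, showed the largest decrease of the 10 genes (chromosome 5 from 33721724 to 33737068, ENSMUSG00000054252). It was at 111, 119 and 118 CPM in control and 11.02, 11.36 and 8.20 CPM in senescent replicates 1, 2 and 3. All senescent libraries were therefore about an order of magnitude below the control libraries, with the control mean 11.4-fold higher. The difference on the log2 scale was -3.51 ± 0.13 (SE, edgeR QL, adjusted p = 2.10e-07), and 1.29% of all genes tested were at or below it. Chondrocyte markers moved in the same direction as *Fgfr3*. All 12 tested of the 13 measured markers were lower in senescent cells, among them *Col2a1*, *Acan*, *Matn3* and *Sox9*. Of all genes tested, 34.1% were lower. The summed level of the chondrocyte markers was between 7330 and 7942 CPM in control and between 637 and 734 CPM in senescent libraries. The collagen genes of the fibroblast list, *Col1a1*, *Col1a2* and *Col3a1*, were lower too (log2 fold changes of -2.54 and -1.87 for *Col1a1* and *Col1a2*). Lower collagen levels were thus not limited to the chondrocyte list. The part of chondrocytes in the *Fgfr3* result was not tested. In bulk RNA, fewer cells of a type and less RNA per cell cannot be told apart.

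Of the 10 fibroblast markers, 3 were higher and 5 lower, and their sum was 63764 to 65730 CPM in control and 47958 to 53450 CPM in senescent libraries. For this and the following lists, the shares over all genes tested were 36.2% higher and 34.1% lower. In the keratinocyte list, 4 of 9 tested genes were higher and 1 lower. Its summed level was 26.5 to 28.3 CPM in control and 40.2 to 47.9 CPM in senescent libraries. *Krt14*, *Krt1* and *Epcam* had at most 13 counts in any library, while *Ivl* had 0 in control and 741 to 1222 in senescent libraries. *Trp63*, the lower gene, had 643 to 765 counts in control and 216 to 403 in senescent libraries. In the macrophage list, *C1qa*, *C1qb* and *C1qc* had at most 1 count, while *Cd68* had between 172 and 363. The 6 tested genes of this list were higher, and its sum was 6.07 to 6.85 CPM in control and 14.5 to 17.2 CPM in senescent libraries. In the endothelial list, the sum fell from between 81.2 and 85.1 CPM to between 15.6 and 16.5 CPM, almost entirely through *Erg*, while *Pecam1*, *Cdh5*, *Kdr*, *Tek* and *Vwf* were higher at no more than 2.92 CPM on average. The skeletal muscle list had 1 higher gene of 2 tested, the Schwann cell list 1 higher and 4 lower of 5, and the adipocyte list 2 higher and 2 lower of 4. The skeletal muscle sum was 15.6 to 20.9 CPM in control and 15.3 to 27.8 CPM in senescent libraries. For the Schwann cell list it was 71.5 to 75.2 and 52.3 to 55.2 CPM, and for the adipocyte list 98.8 to 104 and 55.1 to 61.1 CPM. *Myf5*, *Foxd3*, *Lep* and *Cidec* had at most 3 counts. In contrast, mean CPM in control and senescent libraries was 18.5 and 21.5 for *Acta1*, 44.4 and 37.8 for *S100b*, and 61.8 and 26.2 for *Pparg*. Some of the higher genes could be tested only because the senescent libraries passed the filter. These were *Krt15*, *Dsc3* and *Ivl* of the keratinocyte list, *Vwf*, *Cdh5* and *Kdr* of the endothelial list, and *Itgam*, *Ptprc* and *Lyz2* of the macrophage list. The same was true of *Des* (skeletal muscle), *Ngfr* (Schwann cell) and *Adipoq* (adipocyte). The counts of higher genes are therefore a description. The part of any of these cells in the FGF results was not tested.

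To compare levels between genes, CPM was divided by the gene length in kilobases that the count table lists. In control cells, the order of the ligands by this level was *Fgf7* (26.3), *Fgf2* (7.13), *Fgf21* (0.470), *Fgf10* (0.203), *Fgf18* (0.185), *Fgf1* (0.0171) and *Fgf5* (0 counts). *Fgf10* and *Fgf18* overlapped, and the other neighbours in this order were apart in all libraries. In senescent cells, *Fgf7* (81.1 ± 11.8) and *Fgf2* (78.2 ± 4.31, SD, n = 3) overlapped at the top, followed by *Fgf10* (6.51), *Fgf18* (3.35), *Fgf21* (0.961), *Fgf1* (0.324) and *Fgf5* (0.0611), each apart from the next. *Fgf10* and *Fgf18* had thus moved ahead of *Fgf21*. As a description without a test, the summed ligand level by listed lengths was 34.3 ± 1.78 in control and 170.5 ± 16.2 in senescent cells (SD, n = 3 per group), 4.97 times as high.

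*Fgf2* and *Fgf7* together held nearly all of this sum, but in different proportions. *Fgf7* accounted for 76.8%, 77.2% and 76.0% of it in control and 46.3%, 45.9% and 50.03% in senescent replicates 1, 2 and 3. *Fgf2* accounted for 20.8% ± 0.536 in control and 46.0% ± 1.76 in senescent cells, and *Fgf10* for 0.591% ± 0.104 and 3.82% ± 0.0457 (SD, n = 3 per group). The summed ligand level, these shares, and the place of *Fgf2* beside *Fgf7* in senescent cells rest on the listed length of *Fgf2* (1801 bases). The same counts divided by the 6782 exon bases of M21 would put *Fgf2* well below *Fgf7* in senescent cells as well, with a lower share. Both ligand sums, and the fold between them, would be lower too.

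Among the receptors, the leading gene changed. In control cells, *Fgfr2* was the most abundant per kilobase (39.7 ± 0.733), followed by *Fgfr1* (31.7 ± 0.960) and *Fgfr3* (16.8 ± 0.663). In senescent cells, *Fgfr1* came first (30.2 ± 4.25), ahead of *Fgfr2* (14.5 ± 0.120) and *Fgfr3* (1.48 ± 0.251; SD, n = 3 per group), and no neighbours overlapped in either group. *Fgfr1* held 35.1%, 36.5% and 36.2% of the receptor sum in control and 66.9%, 67.1% and 61.6% in senescent replicates 1, 2 and 3. The ratio of *Fgfr1* to *Fgfr2* was 0.799 ± 0.0381 in control and 2.09 ± 0.302 in senescent cells. The receptor sum was 88.2 ± 0.929 in control and 46.1 ± 4.44 in senescent cells (SD, n = 3 per group). These values use the listed lengths of *Fgfr2* (7240 bases) and *Fgfr1* (8120 bases), against 10328 and 9875 exon bases in M21. With the M21 lengths, the order would stay, but the lead of *Fgfr2* over *Fgfr1* in control cells would be smaller.

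**Figure D3:**
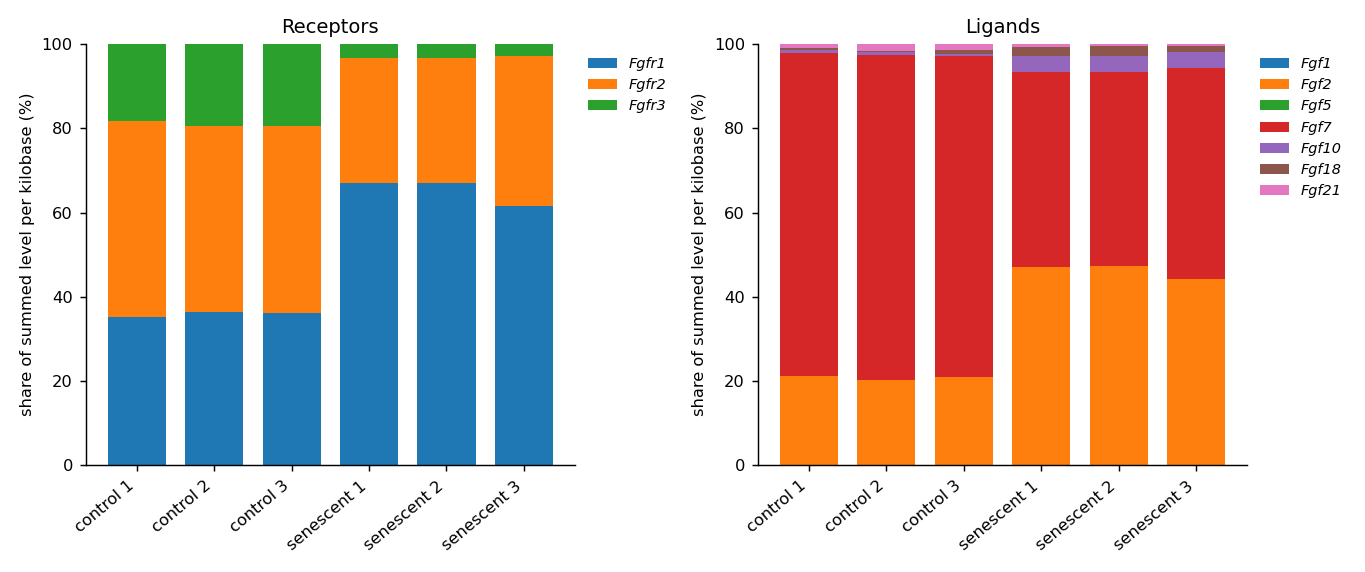
Share (vertical axis, %) of each gene in the summed level per kilobase of the 3 receptors (left) and the 7 ligands (right), 1 stacked bar per library. *Fgfr1* holds 35.1% to 36.5% of the receptor sum in control and 61.6% to 67.1% in senescent libraries, and *Fgf2* takes over much of the share that *Fgf7* has in control libraries. Shares use the listed gene lengths, and the share of *Fgf2* would be lower with its M21 exon length.

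Other secreted FGFs were low in control cells and several rose. Of 11 further ligand genes, 4 passed the filter, each through the senescent libraries alone, and were higher. *Fgf9* and *Fgf16*, which belong to 1 subfamily, were nearly absent from control libraries. *Fgf9* had 1, 2 and 4 counts there and 78, 94 and 105 in the senescent ones, and *Fgf16* had 2, 1 and 1 there against 59, 101 and 125. *Fgf3*, a relative of *Fgf7* and *Fgf10*, had 0 counts in control and 20, 26 and 21 counts in senescent libraries, at least 5.46-fold higher. *Fgf15*, an endocrine FGF, had at most 1 count in control and between 20 and 37 counts in senescent libraries, at least 6.48-fold higher. *Fgf16* was at least 22.3-fold higher by the same limit. The other 7 genes did not pass, among them *Fgf4*, *Fgf8*, *Fgf20* and *Fgf22* with at most 5 counts in any library. The intracellular *Fgf11* and *Fgf13*, which do not act through these receptors, had log2 fold changes of 0.93 and 0.75, and *Fgf12* and *Fgf14* had 0 counts in control libraries and at most 15 in senescent libraries.

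The remaining receptors went down with *Fgfr2* and *Fgfr3*. *Fgfrl1*, a receptor without a kinase domain, fell from 259 ± 13.8 to 70.3 ± 11.8 CPM (SD, n = 3 per group), a difference of -1.88 ± 0.12 (SE) on the log2 scale (edgeR QL, adjusted p = 5.08e-06). *Fgfr4* was scarce and fell from 0.9754 ± 0.192 to 0.419 ± 0.0614 CPM (log2 fold change -1.23, edgeR QL, adjusted p = 0.00137). Carrier proteins release FGFs from the matrix. *Fgfbp1*, which passed the filter only through its senescent libraries, had 3, 6 and 1 counts in control and 58, 75 and 79 counts in senescent replicates 1, 2 and 3, and *Fgfbp3* rose by 1.11 on the log2 scale.

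Heparan sulfate genes were called in both directions, as were all genes tested (36.2% higher and 34.1% lower), and the counts per list are a description. Of 11 tested proteoglycans, 4 were higher and 6 lower, with a median log2 fold change of -0.34 against 0.01 over all genes tested. The cell surface proteoglycans *Gpc4* and *Sdc2* rose (log2 fold changes of 1.88 and 1.23), while the matrix proteoglycan *Hspg2* and the cell surface *Gpc3* and *Sdc1* fell (-1.43, -1.20 and -0.96). Of 15 tested genes for heparan sulfate synthesis and editing, 7 rose and 4 fell (median -0.02). *Sulf1*, an extracellular sulfatase that removes sulfate groups from heparan sulfate, increased from 190.0 ± 1.70 to 662 ± 33.8 CPM (SD, n = 3 per group). The sulfotransferases differed in direction, with log2 fold changes of 2.58 for *Hs3st1*, 1.40 for *Hs6st1* and -0.29 for *Hs2st1*. *Hs6st2*, which was more abundant than *Hs6st1* (136 against 10.7 CPM in control and 134 against 28.1 CPM in senescent libraries), was not called. *Hs3st3a1* and *Hs3st3b1* were not called either. Genes that build the chain also differed, with *Ext1* and *Extl3* higher (1.33 and 0.69) and *Ext2* lower (-0.69). *Ndst1* and *Ndst2*, which modify it, were lower (-0.61 and -0.51).

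Downstream of the receptors, the relay genes changed little and the feedback genes rose. Of 18 tested adaptor and RAS-ERK genes, 6 were higher and 5 lower, all by less than a factor of 2, with a median log2 fold change of 0.09. These shares are close to the 36.2% higher and 34.1% lower of all genes tested. *Sos2* and *Ptpn11* rose by 0.99 and 0.59 and *Mapk3* and *Gab1* fell by 0.86 and 0.82 on the log2 scale. The adaptor *Frs2*, which links FGF receptors to this cascade, had means of 79.9 (control) and 74.9 CPM (senescent) (edgeR QL, adjusted p = 0.331). Of 11 tested feedback inhibitors, 11 were higher, with a median of 1.76. The largest were *Spry4* (1.18 ± 0.0793 to 17.7 ± 0.289 CPM), *Dusp4* (1.57 ± 0.0682 to 21.9 ± 1.58 CPM) and *Dusp6* (5.34 ± 0.205 to 35.1 ± 1.39 CPM; SD, n = 3 per group). The ETS genes *Etv1*, *Etv4* and *Etv5*, known as transcriptional targets of FGF signaling, were higher as well, with log2 fold changes of 2.53, 2.46 and 1.42. These genes also respond to other receptors that activate ERK. Among other proteins that bind FGF receptors, *Flrt2*, *Ncam1* and *Flrt3* were higher (1.65, 1.54 and 0.80) and *Flrt1* and *Cdh2* lower (-0.91 and -0.69).

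**Figure D4:**
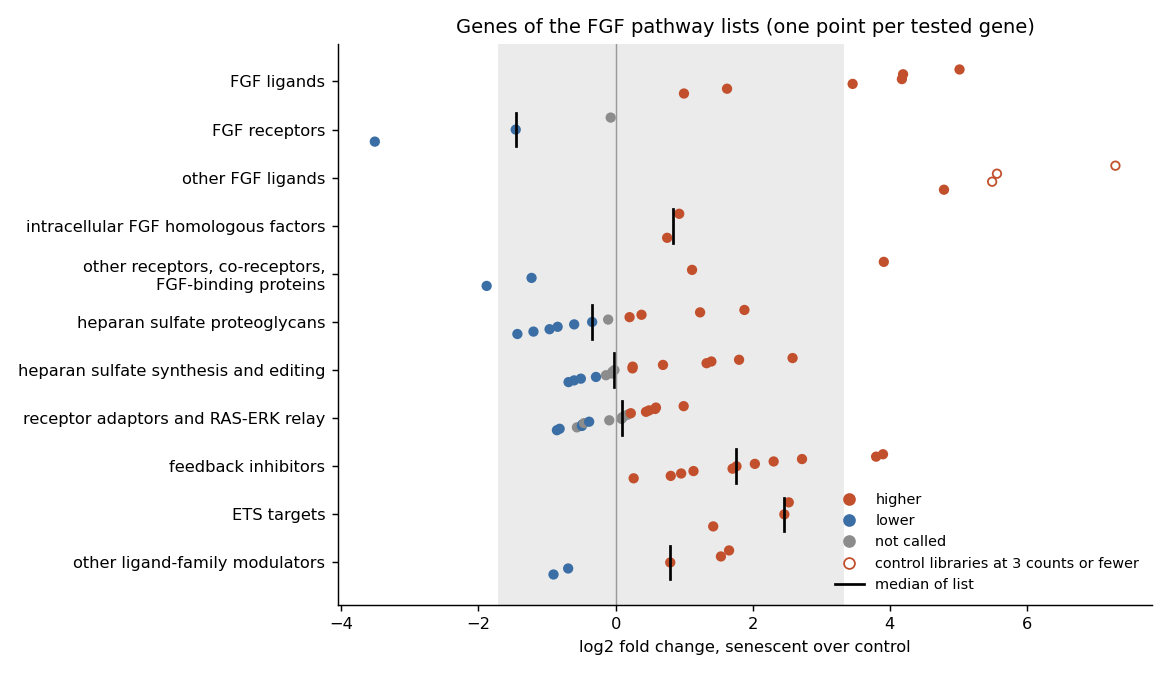
Log2 fold change (horizontal axis) of each tested gene in the FGF lists, colored by call, with black bars for the list median where the filter did not select on the senescent libraries, open points for genes whose control libraries had 3 counts or fewer, and a grey band from the 5th to the 95th percentile of all genes tested. The 11 feedback inhibitors and the 3 ETS genes lie to the right of 0, and the relay genes lie between -0.86 and 0.99.

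Of the 10 FGF genes, *Fgf10* and *Fgfr3* had the largest tested changes in each direction. The genes with profiles most like theirs over the 6 libraries were found among 12935 others with a mean of at least 100 counts. Likeness was the Euclidean distance between log2 CPM values centred on each gene's mean, and it is dominated by the difference between the groups. For *Fgf10*, these were *Flt1*, a VEGF receptor (distance of 0.315), *Havcr2* (0.397) and *Slitrk6* (0.411), with log2 fold changes between 4.97 and 5.04. For *Fgfr3*, these were the collagen gene *Col6a1* (0.0316), *Mns1* (0.0942) and the integrin gene *Itgad* (0.118), with log2 fold changes between -3.60 and -3.49.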

How the data were processed

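Per the labels and the study's methods, stranded mRNA libraries were sequenced from both ends, and the MAPRSeq pipeline aligned the reads to mm10 (STAR) and counted them per gene (Subread). The authors deposited raw counts per gene with a listed gene length, in bases. How multi-mapping reads and strand were handled is not given in the sources used here.

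Genes were filtered with filterByExpr (edgeR 4.0.16, R 4.3.3), which left 17589, TMM factors scaled the libraries, and the robust quasi-likelihood test compared the groups without covariates. It was two-sided, with Benjamini-Hochberg adjustment over all genes tested and calls at an adjusted p under 0.05. The filter asks for about 0.173 CPM in 3 libraries. Standard errors were taken from the log2 fold change and the F statistic. Replicates are separate samples by their labels only, so p-values measure the spread between these samples, which may be technical. An exact permutation test of 3 against 3 cannot give a p below 0.1.

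The FGF genes, the pathway and marker lists and the alternatives were chosen with earlier results of these data known. Named pathway genes were up to 3 higher and 3 lower genes per list with the largest fold change and a mean of at least 100 counts, and all further ligands, receptors and co-receptors. *Esrp1* and the other single markers were picked from the marker lists after their values were seen, as were *Frs2*, *Fgf11*, *Ext1*, *Extl3*, *Hs2st1*, *Hs6st2*, *Hs3st3a1* and *Hs3st3b1*. *Spry3*, *Cnmd* and *Adgre1* had no row under these symbols. Alternatives were RLE scaling, library size alone, 2 other filters, DESeq2 1.42.0, the edgeR exact test, a replicate block and leaving out each library. On simulated data with 17387 genes tested for the same comparison, 100 of 100 genes changed 2-fold and 100 of 100 changed 4-fold (log2 changes of 1 and 2) were recovered, with 13 false calls. Only these 200 genes were changed, all drawn from above a minimum mean count, and every gene had the same spread between libraries. The simulation therefore does not cover genes with few counts, an outlying library, or changes in most genes.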

Additional observations from a re-analysis of the deposited data

How the results depend on the processing

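The 6 ligands called higher and the 2 receptors called lower kept their direction and call under every alternative in which they could be tested. *Fgf1* and *Fgf18* drop out when at least 10 counts are required in every library, because fewer genes are then tested (4 ligands higher). *Fgf5* could be tested without a filter and without control replicate 1 or control replicate 3, and was then higher too (7 ligands), with an adjusted p between 0.00100 and 0.0136 (edgeR QL). Without either control replicate, *Fgf5* passed the filter through its senescent libraries alone. With 0 counts in each control library, *Fgf5* could not have been called lower in these fits. The direction of *Fgfr1* was not fixed: its log2 fold change was 0.0066 with library size alone and 0.0496 without senescent replicate 3, against -0.07 in the reported fit, and over all alternatives it lay between -0.13 and 0.05 without a call. The largest adjusted p-values among the called FGF genes were those of *Fgf21*, between 0.000417 and 0.0295, with log2 fold changes between 0.80 and 1.11. Log2 fold changes lay between 4.87 and 5.13 for *Fgf10*, 3.41 and 3.53 for *Fgf2*, and -3.59 and -3.36 for *Fgfr3*.

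Without a filter, 4 intracellular FGF genes and 4 genes for co-receptors and binding proteins were higher, against 2 and 2. With at least 10 counts in every library, these were 0 of the further ligands and 1 of the co-receptors and binding proteins, because genes near 0 in control cells are no longer tested. With library size alone, the receptor sum of control cells was 85.8. Of 260 counts of higher or lower genes under the alternatives, 256 stayed within 1.5 times the reported count.

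With a replicate block, 6 FGF genes were higher and 2 lower, as without it. The deviations of same-numbered samples from their group means correlated at -0.503, 0.393 and -0.345, and control replicate 1 was closest to senescent replicate 3 (0.615). The deviations within a group sum to 0, so these correlations depend on one another. Whether the replicate numbers pair the samples cannot be told from them.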
